A study of Mus musculus with 25 samples.

Results

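Interleukins and interleukin receptors were followed in salivary glands from 4 to 20 weeks of age. The set holds every gene whose symbol in the probe annotation begins with Il and a digit, on probe sets that carry 1 symbol, which gave 73 of the 18194 genes measured, on 115 probe sets. A member is called expressed where at least 1 of its probe sets had a mean log2 value over all arrays above 3.27, the median over all probe sets of the array. This held for 24 members with 31 expressed probe sets: 10 of 32 ligands, 12 of 33 receptor chains and 2 of 6 decoys or antagonists. The remaining 49 members had no expressed probe set. Il7r, with a mean of 3.29, lay just inside this limit and Il31, with 3.26, just outside it. Il7r passed it through mice 3 and 4 at 16 weeks alone, since its mean over the other 23 mice was 3.18.

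The mice were male C57BL/6.NOD-Aec1Aec2, a C57BL/6 line that carries the NOD-derived Idd3 region (Aec1) and Idd5 region (Aec2) and develops a Sjögren's syndrome-like disease. Glands of 5 mice each were taken at an age of 4 weeks, the baseline, or 8, 12, 16 or 20 weeks, each group drawn from at least 2 litters, and all groups shared the same genotype and received no treatment named in the labels. Each RNA came from the submandibular, sublingual and parotid gland of 1 mouse, with salivary lymph nodes left out at dissection, and was hybridized to 1 Affymetrix whole-genome mouse array. The 4-week mice are the study's baseline, and no other strain was analysed here, so age and disease cannot be told apart.

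Interleukins are small secreted proteins by which leukocytes, epithelium and stroma signal to each other. They act through receptors built of a ligand-binding chain and a signaling chain that several cytokines often share, and soluble or non-signaling decoys limit their action. In the inflamed salivary gland they are known for recruiting and sustaining lymphocytes, and Il2 itself lies in the Idd3 region. The array reads RNA only, and in a whole gland fewer cells of a type and less RNA per cell cannot be told apart.

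Il7r and Il33 are shown by their upstream sequence because both stood highest in the same pair of 16-week mice, a choice made after their values were seen. Of the 73 members, 57 had an entry in the promoter table from RefSeq (build GRCm38.p6), where Il33 has a pair of starts. Each line gives the 250 bases before the start, 5′ to 3′ in the direction of the gene. Capitals mark matches to the letters TTCNNNGAA or TATAAA on either strand, with no match overlapping another.
Il7r, chr15:9529877-9530126, minus strand: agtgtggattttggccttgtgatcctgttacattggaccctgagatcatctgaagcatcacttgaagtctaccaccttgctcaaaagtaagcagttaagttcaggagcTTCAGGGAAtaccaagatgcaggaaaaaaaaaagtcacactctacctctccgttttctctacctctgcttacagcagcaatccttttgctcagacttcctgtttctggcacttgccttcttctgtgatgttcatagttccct
Il33, upstream start, chr19:29924863-29925112, plus strand: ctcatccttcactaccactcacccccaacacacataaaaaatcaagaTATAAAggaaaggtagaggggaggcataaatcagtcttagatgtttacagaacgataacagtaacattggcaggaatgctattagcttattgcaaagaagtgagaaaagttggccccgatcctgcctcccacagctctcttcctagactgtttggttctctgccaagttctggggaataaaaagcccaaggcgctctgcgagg
Il33, downstream start, chr19:29945540-29945789, plus strand: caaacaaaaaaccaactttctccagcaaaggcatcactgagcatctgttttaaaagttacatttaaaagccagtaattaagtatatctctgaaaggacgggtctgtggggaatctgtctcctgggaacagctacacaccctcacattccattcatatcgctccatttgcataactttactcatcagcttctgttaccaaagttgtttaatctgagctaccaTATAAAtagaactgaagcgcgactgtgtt
Among all promoter windows of this length 7.02% hold TTCNNNGAA, which reads the same on both strands, and 12.4% hold TATAAA. The Il7r window held 1 match, to TTCNNNGAA, and each Il33 window held 1 match, to TATAAA. A match of letters is a description and not a measured site.

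Gland markers were high in all arrays and lymphocyte markers were low in most. Mean log2 values of 6 epithelial markers lay between 8.85 and 10.57, and those of 2 granular duct products between 14.23 and 14.78. The mean of 6 B cell markers was 2.58 to 3.97 in 23 mice, and 6.22 in both mouse 3 and mouse 4 at 16 weeks, whose arrays were the closest pair of all 25 (correlation 0.997). The array of mouse 3 at 20 weeks correlated with the other 20-week arrays at a median of 0.887, where all other arrays reached 0.9735 or more within their age, and its median signal was 3.64 where the other array medians lay between 3.17 and 3.35. It was kept in the fit, and for several members the 20-week value is also given without it. Of 6 fibroblast markers 2, 3, 3 and 2 were lower than at 4 weeks at 8, 12, 16 and 20 weeks, and of 4 markers of dividing cells 3 were lower at each age. Expressed genes had a median log2 fold change of 0.10 at 8 weeks and 0.14 at 12 weeks against 4 weeks, which became -0.0135 and -0.015 when the arrays were quantile-normalized.

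No interleukin or interleukin receptor gene passed a test of age in limma at an adjusted p under 0.05. Of the 73 members 0 passed the moderated F-test over the 5 ages, which 4.66% of all genes and 7.02% of expressed genes passed, and 0 had a B-statistic above 1.5, which 1.92% of all genes had. At an unadjusted p under 0.05 in the same F-test 2 of 73 members remained, Il5 and Il17rc, against 18.6% of all genes. Il5 was 1 of 24 expressed members, against 27.3% of expressed genes. Il17rc was 1 of 49 members without an expressed probe set, against 2.88% of such genes.

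The 4 comparisons with 4 weeks share the same 5 young mice and gave 0 members each. The share of all genes called in either direction was 2.26% at 8 weeks, 7.01% at 12 weeks, 3.4% at 16 weeks and 2.65% at 20 weeks. At an unadjusted p under 0.05 limma had 1 member higher and 2 lower at 8 weeks, where 10% and 3.91% of all genes were. It had 1 higher and 3 lower at 12 weeks (16.1% and 4.67% of all genes), 3 higher and 3 lower at 16 weeks (8.37% and 6.06%) and 2 higher and 1 lower at 20 weeks (7.12% and 5.29%). Of the 24 expressed members 1, 1, 1 and 2 were higher at the 4 ages, against 15.4%, 24.5%, 12.1% and 10.6% of expressed genes. Lower were 0, 1, 1 and 0 of them, against 4.4%, 5.22%, 8.05% and 7.44%. Between neighbouring ages from 8 weeks on, 0 members passed as well, where 0.0055%, 0.0055% and 0.0275% of all genes did. The count at 12 weeks depended on how single arrays were weighted: with array weights 35 members passed, 34 of them lower, where 54.9% of all genes passed, and without the 3 arrays of lowest correlation (mice 3 and 5 at 20 weeks and mouse 2 at 16 weeks) 31 passed, where 43.3% of all genes did.

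The confidence intervals show what size of change these data leave possible. For the gene values of 20 of the 24 expressed members the 95% interval of the log2 fold change stayed between -1 and 1, a 2-fold change either way, at each of the 4 later ages. The 4 others were Il15, Il17b, Il1rl2 and Il33. A gene value can average probe sets that differ, and single probe sets went further, down to -1.42 at 16 weeks for 1437303_at of Il6st and up to 1.16 (SE 0.50) at 16 weeks for 1448575_at of Il7r, both described with their genes. Over the 24 genes the fitted log2 fold changes ran from -0.34 (Il33) to 0.99 (Il17b) at 8 weeks, -0.42 (Il6ra, -0.16 without mouse 4 at 4 weeks) to 0.72 (Il17b) at 12 weeks, -0.48 (Il17d) to 0.70 (Il17b) at 16 weeks and -0.58 (Il15) to 0.72 (Il17b) at 20 weeks. The median over all 73 members was -0.045, -0.044, -0.0208 and 0.0324 at 8, 12, 16 and 20 weeks, where all genes had -0.0303, -0.0313, -0.0153 and 0.0366. Over the 24 expressed members alone it was -0.0972, -0.0821, -0.0804 and -0.021. Genes with an expressed probe set had 0.0976, 0.1399, 0.0176 and 0.065. After quantile normalization the expressed members had -0.0627, -0.1425, -0.0948 and -0.0213. Expressed genes then had -0.0135, -0.015, -0.0135 and 0.0351. These differences were not tested.

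**Figure D1:**
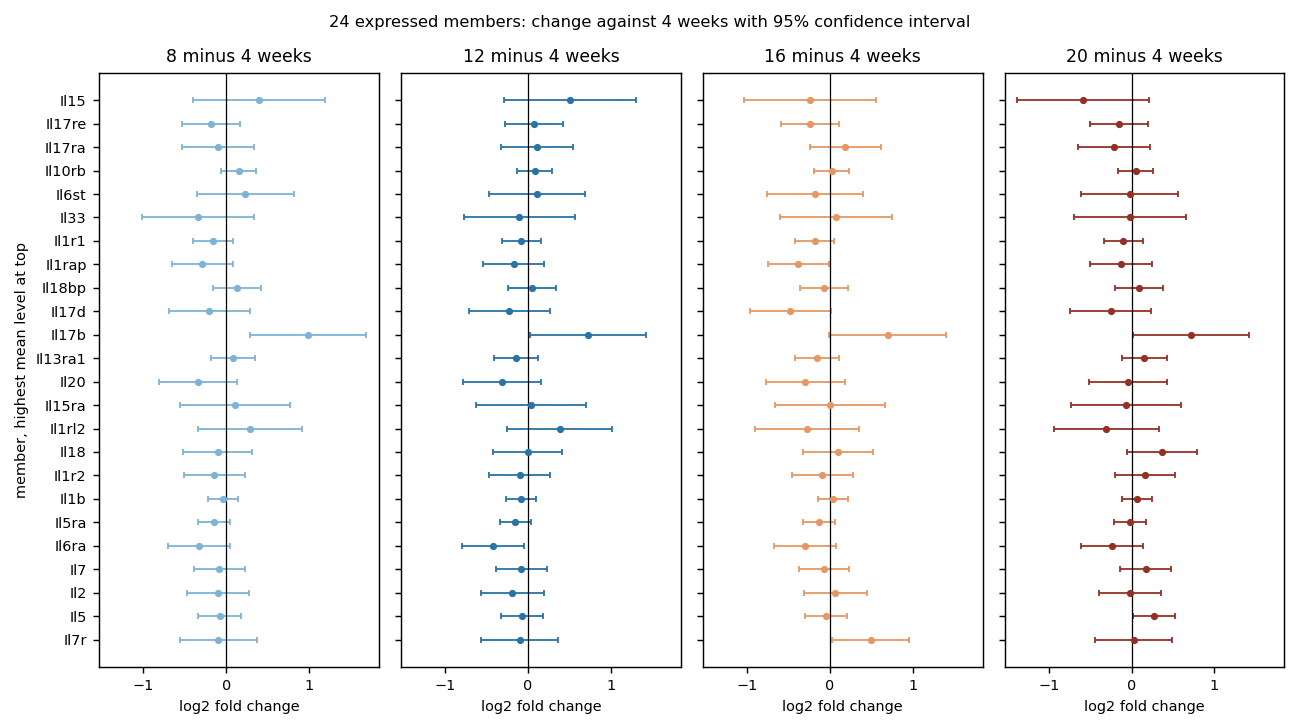
Log2 fold change against 4 weeks of the 24 expressed members at 8, 12, 16 and 20 weeks (points) with the 95% confidence interval of the limma fit (bars), n = 5 mice per age, ordered by mean signal. Most intervals cross 0, and only those of Il17b, Il15, Il33 and Il1rl2 extend beyond -1 or 1.

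The members differed widely in signal, although probe sets differ in how strongly they bind, so a higher signal of a gene is not more RNA than that of another. The mean log2 value over 25 arrays was above 6 for 7 members and lay between 4 and 6 for 9, while 8 expressed members were under 4. The 49 others had means from 1.27 (Il4i1) to 3.26 (Il31).

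**Figure D2:**
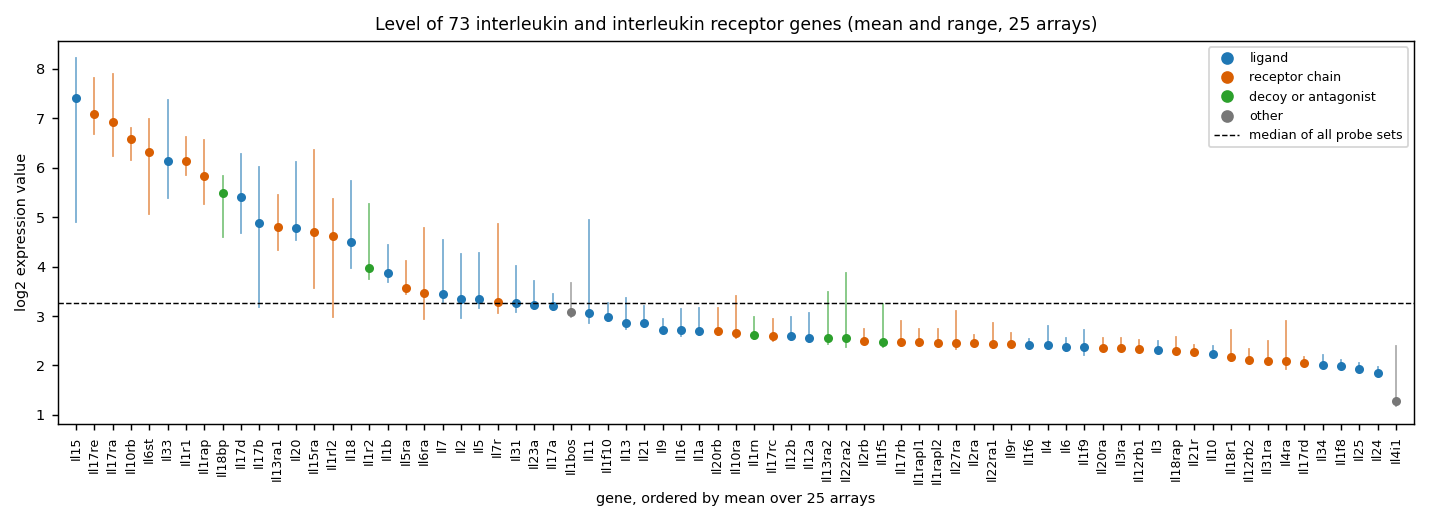
Mean (points) and range (lines) of the log2 expression value over 25 arrays for each of the 73 members, colored by role and ordered by mean, with the median of all probe sets (3.27) as a dashed line. The 24 expressed members lie to the left with means above the line, and the lines of Il15, Il15ra, Il1rl2, Il17b and Il11 reach far from the mean on single arrays.

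The product of Il15 sustains natural killer cells and memory CD8 T cells and is held on the surface of the cell that makes it by the Il15ra chain. Il15 had log2 values of 7.73, 7.46, 7.09, 7.10 and 7.65 in mice 1 to 5 at 4 weeks. It had 7.72, 7.73, 7.79, 7.85 and 7.92 at 8 weeks and 7.90, 8.14, 7.75, 7.80 and 7.95 at 12 weeks. All 12-week mice thus lay above all 4-week mice, and Il15 was the only member of which this held. Such a gap upward at 12 weeks was found in 12.5% of all genes and 19.2% of genes with an expressed probe set.

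At 16 weeks Il15 had 7.20, 6.04, 7.35, 7.04 and 8.22, and at 20 weeks 7.52, 6.96, 4.91, 7.09 and 7.63. These older mice spread over the whole range of the younger ones, with mouse 3 at 20 weeks lowest of the 25. The log2 fold change was 0.50 (SE 0.38, limma adjusted p = 0.535) at 12 weeks and -0.58 (SE 0.38, limma adjusted p = 0.650) at 20 weeks. Without mouse 3 at 20 weeks the 20-week value was -0.10. The 12-week value of Il15 passed when the 2 ages were fitted alone (limma adjusted p = 0.0495), with array weights (0.43, limma adjusted p = 0.0287) and without the 3 arrays of lowest correlation (0.50, limma adjusted p = 0.0377), and was 0.11 after quantile normalization (limma adjusted p = 1). With array weights or without these 3 arrays, many more of all genes passed at 12 weeks than in the unweighted fit of all 25 arrays.

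Il33 encodes an alarmin of epithelial and endothelial nuclei that is released on damage and binds the ST2 receptor. Its log2 values were 5.95, 6.04, 6.82, 6.36 and 5.93 at 4 weeks, 5.53, 5.54, 5.77, 6.55 and 5.98 at 8 weeks and 6.22, 6.44, 6.12, 6.02 and 5.78 at 12 weeks. They were 5.98, 5.45, 7.24, 7.38 and 5.39 at 16 weeks and 5.92, 6.08, 6.64, 5.93 and 6.42 at 20 weeks. Mice 3 and 4 at 16 weeks had the highest values of all 25, and the other 16-week mice lay within or below the 4-week range. The log2 fold change at 16 weeks was 0.07 (SE 0.325, limma adjusted p = 0.940) and without these 2 mice -0.61 (limma adjusted p = 0.329).

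The IL-17 family ligands Il17d and Il17b were both above the median of the array. Il17b, whose product binds the Il17rb chain, had 4.84, 4.83, 3.58, 3.18 and 4.83 at 4 weeks. At 8 weeks it had 4.82, 5.14, 4.82, 5.99 and 5.43. Mice 3 and 4 at 4 weeks were the lowest of the 25, and the other 4-week mice overlapped each later age.

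At 12, 16 and 20 weeks Il17b ran from 4.74 to 5.27, 4.48 to 6.01 and 4.50 to 5.50. It had the highest log2 fold change of the expressed members at each age, 0.99 (SE 0.34, limma adjusted p = 0.143) at 8 weeks and 0.72, 0.70 and 0.72 at 12, 16 and 20 weeks. Without mouse 4 at 4 weeks these values were 0.72, 0.45, 0.43 and 0.45. Il17d, a ligand of the same family, averaged 5.64 ± 0.25 at 4 weeks, 5.43 ± 0.08 at 8, 5.41 ± 0.19 at 12, 5.16 ± 0.41 at 16 and 5.38 ± 0.68 at 20 weeks (SD, n = 5 each), and its ages overlapped. Mouse 3 at 20 weeks, with 6.28, was the highest of the 25 for Il17d, and the log2 fold change at 20 weeks was -0.25 with it and -0.48 without it. The 20-week value of Il17d passed with array weights (-0.57, limma adjusted p = 0.0147) and without the 3 arrays of lowest correlation (-0.73, limma adjusted p = 0.0086). Many more of all genes passed at 20 weeks under both settings than in the unweighted fit of all 25 arrays. All these values of Il17d come from probe set 1435714_x_at, while 1456612_at, with a mean of 2.04, was not expressed.

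The other IL-1 family ligands with an expressed probe set were Il18 and Il1b, which caspase-1 matures. Il18 ran from 4.41 to 4.47 at 4 weeks, 4.17 to 4.68 at 8, 4.35 to 4.53 at 12, 3.97 to 5.02 at 16 and 4.26 to 5.73 at 20 weeks. Its spread was thus smallest in the youngest mice, with an SD of 0.027 at 4 weeks and 0.59 at 20 weeks. The highest 20-week value, 5.73, was that of mouse 5, whose array is among the 3 of lowest correlation. Il1b lay between 3.69 and 4.01 in 24 mice and at 4.44 in mouse 3 at 20 weeks.

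Il20, a ligand of the IL-10 family that acts on epithelium, had 6.11 in mouse 4 at 4 weeks and 5.87 in mouse 3 at 20 weeks. The other 23 mice lay between 4.55 and 4.73, so that the spread of Il20 rests on 2 arrays.

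Among the T cell ligands Il2, Il7 and Il5 the signal was near the limit for expressed genes. Il2, the growth factor of activated T cells, had 3.28, 3.39, 3.60, 3.34 and 3.37 at 4 weeks and 3.29, 3.38, 3.29, 3.29 and 3.23 at 8 weeks. Its values were 3.29, 2.96, 3.27, 3.24 and 3.26 at 12 weeks, 3.27, 4.25, 3.28, 3.25 and 3.25 at 16 weeks and 3.00, 3.19, 4.16, 3.25 and 3.28 at 20 weeks. Single arrays, mouse 2 at 16 weeks and mouse 3 at 20 weeks, stood above all others, and the rest overlapped.

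The log2 fold change of Il2 was -0.19 (SE 0.18, limma adjusted p = 0.602) at 12 weeks and -0.02 at 20 weeks, where it was -0.22 without mouse 3. With array weights Il2 passed as lower at 12 and 20 weeks (-0.18 and -0.23, limma adjusted p = 0.0263 and 0.0243). With these weights 65.2% and 30.5% of all genes without an expressed probe set were called lower at the same ages. The mean of Il2, 3.35, lies just above the limit for expressed genes. Il7, which stroma makes for lymphocyte survival, ran from 3.29 to 3.63 in 24 mice and was 4.53 in mouse 3 at 20 weeks. Il5, the growth factor of eosinophils, ran from 3.16 to 3.38 in all mice up to 16 weeks. Its 20-week values were 3.26, 3.24, 4.28, 3.73 and 3.50. These gave a log2 fold change of 0.27 (SE 0.12, limma adjusted p = 0.342) at 20 weeks, and 0.11 without mouse 3. Il6, which drives the acute phase and B cell growth, had no expressed probe set and lay between 2.30 and 2.55 in all 25 mice.

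**Figure D3:**
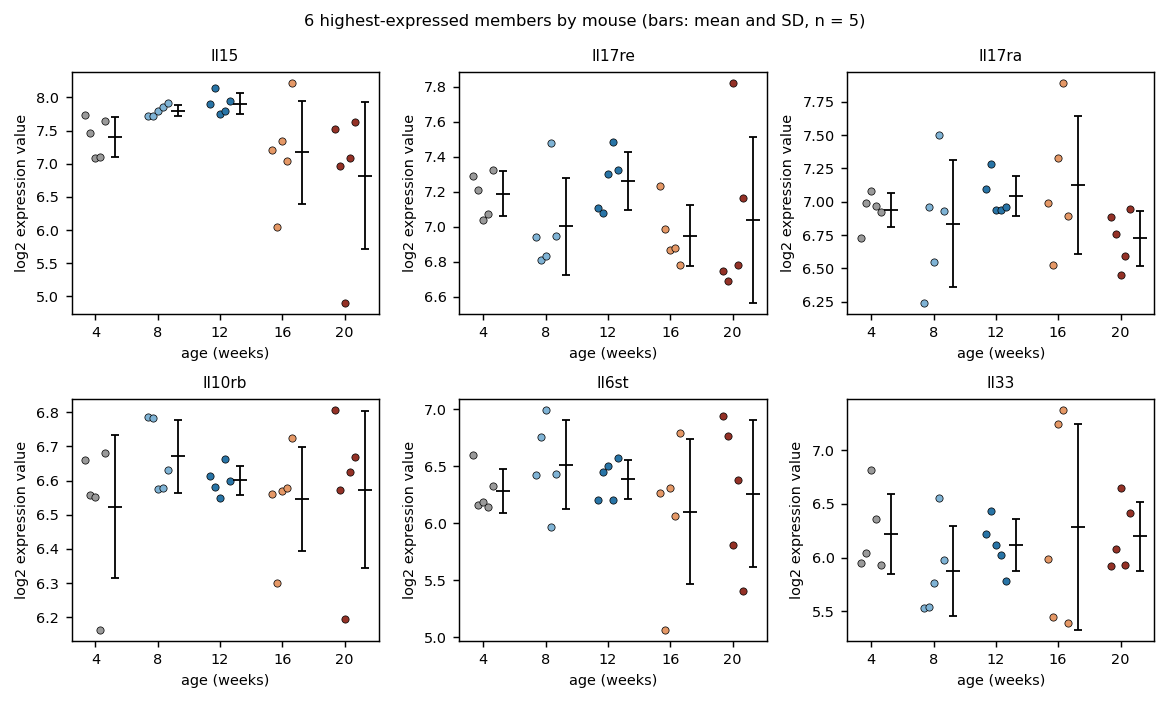
Log2 expression values of the 6 members of highest mean signal in each mouse at each of the 5 ages (points, mice 1 to 5 from left to right), with mean and SD (n = 5). The 12-week points of Il15 lie above its 4-week points, and 2 of the 16-week points of Il33 stand above the rest. The lowest 16-week point of Il15 and of Il6st is mouse 2. At 20 weeks the lowest point is mouse 3 for Il15 and mouse 5 for Il6st. These are the 3 arrays of lowest correlation within their age.

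Il17re and Il17ra encode chains that together form the receptor for IL-17C, an epithelial cytokine. Il17re had 7.29, 7.21, 7.04, 7.07 and 7.33 at 4 weeks, 6.94, 6.81, 6.84, 7.48 and 6.95 at 8 weeks and 7.11, 7.08, 7.30, 7.48 and 7.33 at 12 weeks. It had 7.23, 6.99, 6.87, 6.88 and 6.78 at 16 weeks and 6.75, 6.69, 7.82, 6.79 and 7.16 at 20 weeks. At 16 weeks 4 of 5 mice and at 20 weeks 3 of 5 lay below the lowest 4-week mouse, with log2 fold changes of -0.24 and -0.15 (SE 0.17 each, limma adjusted p = 0.638 and 0.799). Without mouse 3, the highest of the 25, the 20-week value was -0.34. The 20-week value of Il17re passed with array weights (-0.44, limma adjusted p = 0.00675) and without the 3 arrays of lowest correlation (-0.45, limma adjusted p = 0.0228). Both settings called many more of all genes at 20 weeks than the unweighted fit of all 25 arrays, with the shares given in the closing section. All these values of Il17re come from 1 probe set, 1426566_s_at. Its other probe sets, 1439357_at (mean 2.52) and 1452109_at (0.48), were not expressed, and their 20-week log2 fold changes were 0.0029 and -0.0095.

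Il17ra, the chain shared by most IL-17 receptors, had 6.73, 6.99, 7.08, 6.97 and 6.92 at 4 weeks, 6.24, 6.96, 6.55, 7.50 and 6.93 at 8 weeks and 7.10, 7.29, 6.94, 6.94 and 6.96 at 12 weeks. It had 6.99, 6.52, 7.33, 7.89 and 6.90 at 16 weeks and 6.89, 6.76, 6.45, 6.59 and 6.95 at 20 weeks. The ages overlapped throughout, with log2 fold changes from -0.21 to 0.19 (SE 0.21 each).

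Il10rb is the second chain of the receptors for IL-10, IL-22 and the type III interferons. Its log2 values were 6.66, 6.56, 6.55, 6.16 and 6.68 at 4 weeks, 6.79, 6.78, 6.57, 6.58 and 6.63 at 8 weeks and 6.61, 6.58, 6.55, 6.66 and 6.60 at 12 weeks. They were 6.56, 6.30, 6.57, 6.58 and 6.72 at 16 weeks and 6.81, 6.57, 6.19, 6.63 and 6.67 at 20 weeks. The ages overlapped, with log2 fold changes of 0.15, 0.08, 0.02 and 0.05 at 8, 12, 16 and 20 weeks (SE 0.10 each, limma adjusted p from 0.613 to 0.938), and 0.145 at 20 weeks without mouse 3. The gene value of Il10rb averages a bright probe set, 1419455_at with a mean of 9.58, and a dim one, 1429959_at with 3.59, so its spread is not that of either. The bright one ran from 7.73 in mouse 3 at 20 weeks, where the dim one was highest (4.65), to 10.09, with log2 fold changes of 0.38, 0.26, 0.12 and -0.0174 (SE 0.31 each, none passing). Il10ra, which binds IL-10 and is found on leukocytes, had no expressed probe set: 24 mice lay between 2.55 and 3.01, and mouse 2 at 16 weeks at 3.41.

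Il6st encodes gp130, the signaling chain shared by IL-6, IL-11, LIF and related cytokines. Its gene value was 6.60, 6.16, 6.19, 6.14 and 6.33 at 4 weeks, 6.42, 6.75, 6.99, 5.97 and 6.43 at 8 weeks and 6.20, 6.45, 6.50, 6.21 and 6.57 at 12 weeks. It was 6.26, 5.07, 6.31, 6.07 and 6.79 at 16 weeks and 6.94, 6.76, 5.81, 6.38 and 5.41 at 20 weeks. The ages overlapped, and the log2 fold changes were 0.23, 0.10, -0.18 and -0.02 (SE 0.28 each, limma adjusted p from 0.707 to 0.974). The signs at the older ages rest on single arrays. The 16-week value was 0.0759 without mouse 2 of that age. The 20-week value was 0.0891 without mouse 3, 0.19 without mouse 5 and 0.0557 without mouse 1 at 4 weeks.

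The mean of Il6st covers probe sets with fold changes of opposite sign, which were singled out after their values were seen. Probe set 1437303_at had 7.26, 6.53, 6.61, 6.83 and 6.67 at 4 weeks, 7.30, 7.30, 7.48, 4.93 and 5.61 at 8 weeks and 5.69, 5.30, 5.67, 5.68 and 5.86 at 12 weeks. Probe set 1452843_at had 6.58, 5.83, 6.39, 5.85 and 6.60 at 4 weeks, 6.47, 6.57, 6.85, 7.49 and 7.44 at 8 weeks and 6.87, 7.47, 7.35, 7.20 and 7.16 at 12 weeks. At 12 weeks all mice thus lay below the 4-week mice on 1437303_at and above them on 1452843_at. Among all genes 21.1% had such a gap downward and 12.5% upward at 12 weeks. Among genes with an expressed probe set it was 7.2% and 19.2%, and the share of probe sets was not counted. At 8 weeks mice 4 and 5 lay below all 4-week mice on 1437303_at and above them on 1452843_at, while mice 1, 2 and 3 lay above all 4-week mice on 1437303_at.

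Neither probe set of Il6st passed by itself when all 34958 probe sets were tested singly. For 1437303_at the log2 fold change was -1.14 (SE 0.51, limma adjusted p = 0.247) at 12 weeks and -1.42 (limma adjusted p = 0.187) at 16 weeks. For 1452843_at it was 0.96 (SE 0.31, limma adjusted p = 0.0831) at 12 weeks. The third expressed probe set, 1460295_s_at, had 0.49 (limma adjusted p = 0.469) at 12 weeks. Which transcripts each probe set reads was not analysed here.

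None of the IL-1 family receptor chains Il1r1, Il1rap and Il1rl2 passed at any age when their gene values, from expressed probe sets, were fitted over all arrays. Il1r1, which signals for IL-1, lay between 5.85 and 6.62 in all 25 mice, with log2 fold changes from -0.18 to -0.08. Il1rap, the chain that IL-1, IL-33 and IL-36 receptors share, averaged 5.64 ± 0.185 at 16 weeks and 6.02 ± 0.144 at 4 weeks (SD, n = 5 each), a log2 fold change of -0.38 (SE 0.18, limma adjusted p = 0.324). This value comes from 1421844_at, the only expressed probe set of Il1rap. The others ran from -0.28 to -0.0164 at 16 weeks, none passing singly, while Il1rap passed at 16 weeks with all its probe sets averaged. Il1rl2, the IL-36 receptor, lay between 3.50 and 5.37 in 24 mice and at 2.98 in mouse 3 at 20 weeks, and its 20-week log2 fold change was -0.31 with this mouse and 0.0256 without it.

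Il13ra1, which binds IL-13 and pairs with Il4ra, has 5 expressed probe sets, and 1 of them passed when tested singly. It was the only one of the 115 member probe sets to pass, at 12 and 16 weeks and in the F-test, where 4.95%, 2.49% and 3.01% of all 34958 probe sets passed. Probe set 1451775_s_at had 5.32, 5.03, 5.28, 5.32 and 5.37 at 12 weeks and 5.74, 5.91, 6.04, 5.77 and 6.11 at 4 weeks. At 16 weeks it had 5.18, 5.08, 5.37, 5.27 and 4.9994. Both older groups lay wholly below the 4-week mice, with log2 fold changes of -0.65 (SE 0.16, limma adjusted p = 0.0232) at 12 weeks and -0.74 (SE 0.16, limma adjusted p = 0.0163) at 16 weeks. Among all genes 21.1% had such a gap downward at 12 weeks and 2.16% at 16 weeks. Among genes with an expressed probe set it was 7.2% and 3.15%. The 8-week mice ran from 4.90 to 6.02 and the 20-week mice from 5.23 to 6.07, overlapping the youngest.

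The other probe sets of Il13ra1 did not pass, and the brightest, 1454783_at, had 0.15 at 12 weeks and 0.11 at 16 weeks (limma adjusted p = 0.742 and 0.946). The gene value of Il13ra1 had log2 fold changes of -0.14 (SE 0.13, limma adjusted p = 0.588) at 12 weeks and -0.15 (limma adjusted p = 0.764) at 16 weeks. The suffix _s_at is the maker's mark for a probe set that matches several transcripts. This probe set was singled out after its values were seen.

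**Figure D4:**
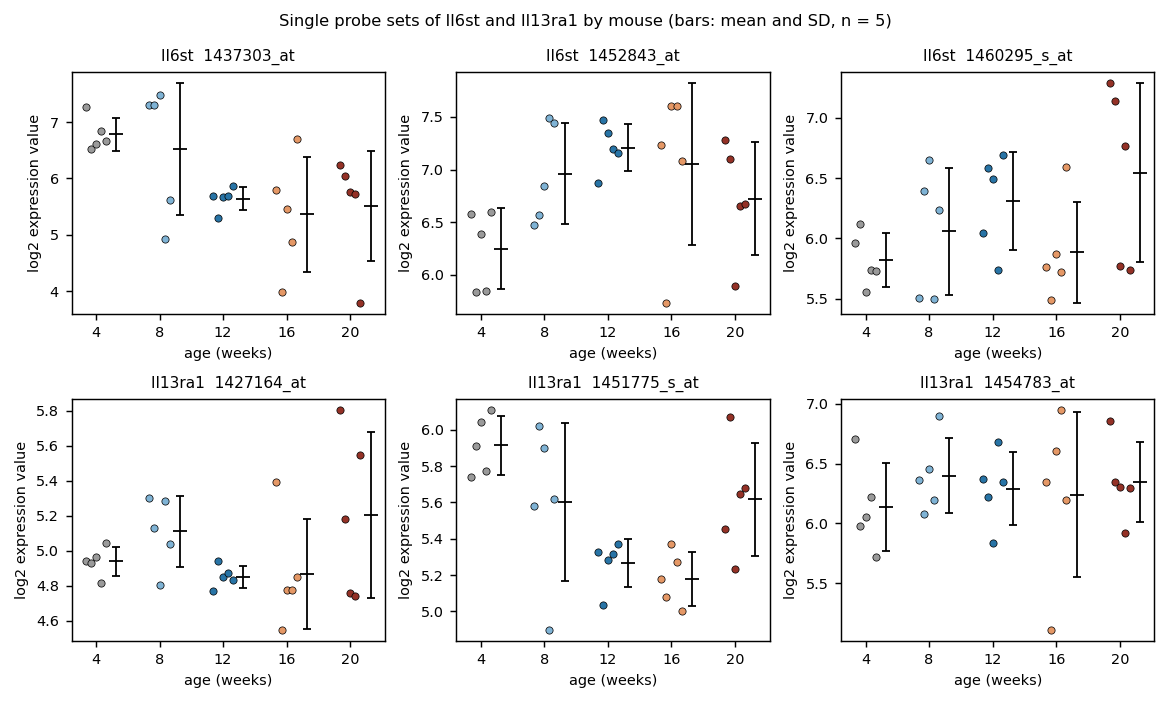
Log2 values of 3 probe sets of Il6st (top) and 3 of Il13ra1 (bottom) in each mouse at each of the 5 ages (points, mice 1 to 5 from left to right), with mean and SD (n = 5). The 12-week points lie below the 4-week points for 1437303_at and 1451775_s_at and above them for 1452843_at.

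The private chains of cytokines that act on leukocytes differed most on single arrays. Il15ra, which presents IL-15, lay between 3.57 and 5.16 in 24 mice and at 6.36 in mouse 2 at 16 weeks, an array on which Il15 itself was at 6.04, the lowest at that age. Il6ra, the ligand-binding chain for IL-6, was 4.78 in mouse 4 at 4 weeks and between 2.94 and 3.79 in the others. Its 12-week mice ran from 2.94 to 3.41 and its 4-week mice from 3.41 to 4.78, so that they met within rounding (log2 fold change -0.42, SE 0.18, limma adjusted p = 0.170). Without mouse 4 at 4 weeks the 12-week value of Il6ra was -0.16 (limma adjusted p = 0.389). Il5ra, the eosinophil chain for IL-5, ran from 3.45 to 4.11.

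Il7r, the chain for IL-7 on lymphocytes, which also serves TSLP together with Crlf2, was near the limit for expressed genes but for 2 mice. Its log2 values were 3.16, 3.19, 3.19, 3.39 and 3.18 at 4 weeks, 3.14, 3.16, 3.12, 3.15 and 3.07 at 8 weeks and 3.17, 3.07, 3.14, 3.11 and 3.12 at 12 weeks. They were 3.14, 3.25, 4.20, 4.86 and 3.14 at 16 weeks and 3.13, 3.14, 3.59, 3.15 and 3.24 at 20 weeks. Only mice 3 and 4 at 16 weeks exceeded 4. The log2 fold change of Il7r at 16 weeks was 0.49 (SE 0.22, limma adjusted p = 0.299) and without these 2 mice -0.0486. A second probe set of Il7r that lay outside its gene value, 1448575_at, was chosen after its values were seen. It had 5.96 and 5.34 in these 2 mice and 2.39 to 3.05 in the other 23.

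The same 2 mice held the 2 highest of 25 values in 4 of the 73 members (5.48%), Il7r, Il33, Il22ra2 and Il16, against 2.5% of all genes. Il22ra2, a soluble receptor that binds and blocks IL-22, had 3.88 and 3.81 in them and 2.38 to 2.73 in the other 23 mice. Il16, a chemoattractant for CD4 cells, had 3.04 and 3.14, with mouse 3 at 20 weeks also at 3.04. Il22ra2 and Il16 are named after their values were seen.

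Most B cell markers were also highest in these 2 mice. The 4 members were picked by their values in the same mice, so this cannot show that markers and members vary together. Of 6 B cell markers 5 were highest in mice 3 and 4 at 16 weeks, among them Cd79a, a part of the B cell receptor, with 8.64 and 8.52 in these mice and 2.51 to 5.71 in the others. Of 8 T cell markers 2 were highest there, Cd3d (6.48 and 6.16, against 2.09 to 4.07 in the others) and Cd8a, and the mean of the T cell list was 4.25 and 4.06 there against 3.00 to 3.21 in the other 16-week mice. Among 3 lymph node stroma markers the chemokine Cxcl13 was highest in these mice (7.86 and 7.27), and Glycam1, a product of lymph node venules, had 7.79 and 7.12, below the 9.11 and 9.62 of mice 3 and 4 at 4 weeks. The part of lymphocytes or lymph node tissue in the levels of these 4 members was not tested.

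**Figure D5:**
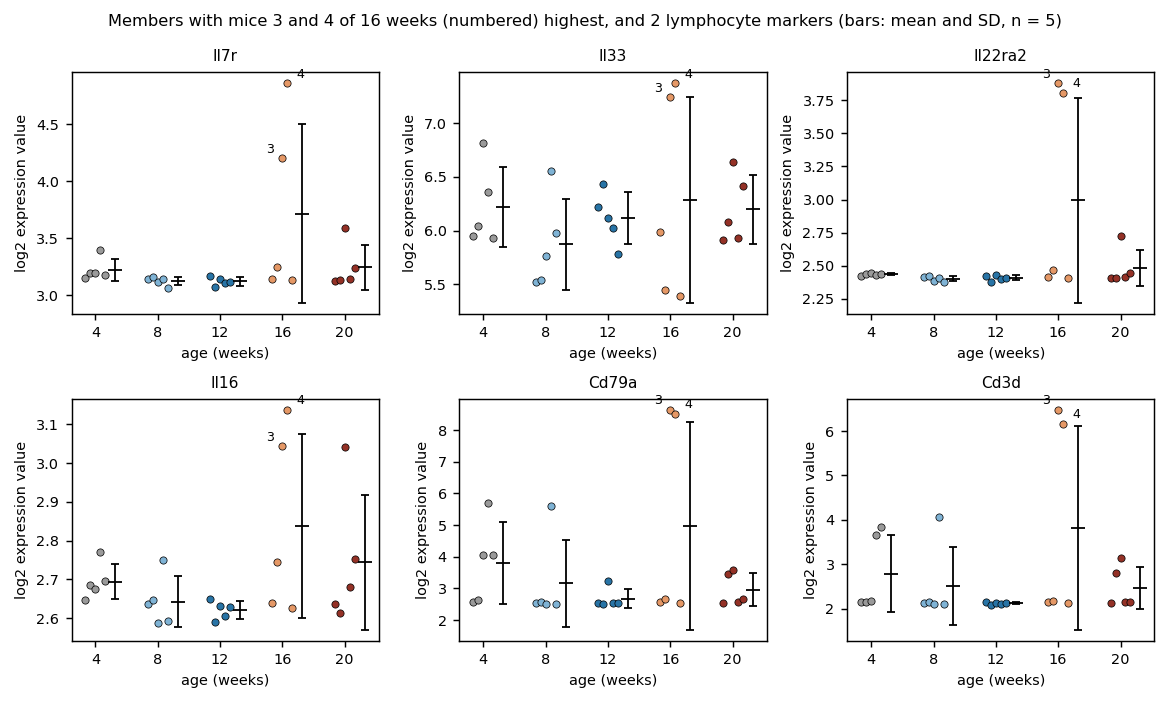
Log2 values of Il7r, Il33, Il22ra2 and Il16, of the B cell marker Cd79a and of the T cell marker Cd3d in each mouse at each of the 5 ages (points, mice 1 to 5 from left to right), with mean and SD (n = 5) and mice 3 and 4 at 16 weeks numbered. These 2 mice are the highest of 25 in each panel.

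Of the decoys and antagonists, Il18bp and Il1r2 were expressed. Il18bp, which neutralizes IL-18, lay between 5.32 and 5.84 in 24 mice and at 4.60 in mouse 2 at 16 weeks. Il1r2, a receptor that binds IL-1 without signaling, lay between 3.76 and 4.11 in 24 mice and at 5.27 in mouse 3 at 20 weeks. Il1rn, the antagonist of the IL-1 receptor, had no expressed probe set and lay between 2.54 and 2.97 in all 25 mice, highest in mouse 3 at 20 weeks.

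The 49 members without an expressed probe set include ligands of T helper cells such as Il4, Il10, Il13, Il17a and Il21, the IL-2 receptor chains Il2ra and Il2rb, and both IL-12 receptor chains. Their mean per array was 2.44 to 2.50 at 4 weeks, 2.40 to 2.45 at 8, 2.39 to 2.45 at 12, 2.43 to 2.57 at 16 and 2.41 to 2.80 at 20 weeks, where the highest array was mouse 3. That array held the highest of 25 values in 34 of the 49 (74.6% of all genes without an expressed probe set). At these signals the array cannot show whether a gene was silent or below what its probes detect.

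Small downward gaps were common at this level, among the members and among all genes. At 12 weeks 20 of 73 members lay wholly below the 4-week mice, against 21.1% of all genes. Of these 20, 18 had no expressed probe set, 36.7% of the 49, where 46.2% of all genes without one showed the same gap. At 8 weeks 3 members did so, against 4.05% of all genes. The smallest limma adjusted p among all members against 4 weeks belonged to Il17rc, a chain of the IL-17A receptor without an expressed probe set, named after its values were seen. Il17rc averaged 2.57 ± 0.01 at 12 weeks and 2.73 ± 0.16 at 4 weeks (SD, n = 5 each), a log2 fold change of -0.16 (SE 0.05, limma adjusted p = 0.0722), and it passed at 8, 12 and 16 weeks when mouse 1 at 4 weeks or mouse 3 at 20 weeks was left out.

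Genes that carry interleukin signals were called at shares near those of all genes. Of 46 measured adaptors, kinases, STAT factors, inhibitors and related receptors, 35 with an expressed probe set, 1 rose at 8 weeks, 3 at 12 weeks, 1 at 16 weeks and 0 at 20 weeks. Among all genes 1.48%, 5.66%, 1.71% and 1.14% rose at these ages, and 8.63% of expressed genes did at 12 weeks. Of the 46 genes 0 fell, where 0.78%, 1.36%, 1.68% and 1.52% of all genes did. Irak1, a kinase below the IL-1 and IL-18 receptors, had 9.83, 10.18, 9.79, 9.90 and 9.97 at 12 weeks and 9.47, 9.49, 9.21, 8.77 and 9.40 at 4 weeks. Its 12-week mice lay wholly above the youngest, as for 12.5% of all genes and 19.2% of expressed genes. The log2 fold change was 0.67 (limma adjusted p = 0.00451). Crlf2, the TSLP receptor chain that pairs with Il7r, had 8.25, 8.25, 8.15, 8.18 and 7.99 at 12 weeks and 7.62, 7.29, 7.23, 6.94 and 7.89 at 4 weeks.

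The 12-week mice were likewise all above the 4-week mice for Crlf2, with log2 fold changes of 0.77 (limma adjusted p = 0.0097) at 12 weeks and 0.75 (limma adjusted p = 0.0168) at 16 weeks. Pias1, a SUMO ligase, had 0.62 (limma adjusted p = 0.0449) at 12 weeks and Irs1, a docking protein of the insulin and IL-4 receptors named after its values were seen, had 1.53 (limma adjusted p = 0.0322) at 8 weeks. After quantile normalization the 12-week values of Irak1, Crlf2 and Pias1 were 0.22, 0.38 and 0.35 and did not pass (limma adjusted p = 0.381, 0.395 and 0.0619). Without mice 3 and 4 the 16-week value of Crlf2 was 0.58 (limma adjusted p = 0.195). Left out singly, each of 18 of the 25 arrays ended the call of Pias1, each of 6 that of Irs1 (mice 2, 3 and 4 at 4 weeks and mice 1, 3 and 5 at 8 weeks) and each of 5 that of Crlf2 at 16 weeks (mice 3 and 4 at 4 weeks and mice 1, 3 and 4 at 16 weeks).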

How the data were processed

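The log2 values of 45101 probe sets on 25 arrays were taken as the authors deposited them. GCRMA is the normalization in the methods, while RMA stands in the submitters' processing notes, and versions are not given in the sources used here. Of 35890 annotated probe sets, 34958 with 1 symbol were kept, 932 with several were left out (3 of them interleukin probe sets), and 9211 were not listed. Gene IDs of 34754 matched the RefSeq gene table and 204 kept the annotation's symbol. Expressed probe sets were averaged to a gene value, and genes with none took the mean of all theirs. Precision rests on 5 mice per age and on signal over background, since arrays have no read depth.

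One linear model of all 25 arrays was fitted with limma 3.58.1 (R 4.3.3), with an F-test over age, contrasts against 4 weeks and between neighbouring ages, and B-statistics of polynomials of degree 1 to 4 (prior share 0.01, threshold 1.5). Two-sided p-values were adjusted over 18194 genes (Benjamini-Hochberg); rose, fell and passed mean an adjusted p under 0.05. Summaries used Python 3.11.15, numpy 2.4.6 and pandas 2.3.3, and figures matplotlib 3.10.9. The fit was tested on simulated data.

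Full values go to members past a test, the 6 expressed members of highest mean, among them Il10rb, and to Il2 and Il7r. Il6 and Il10ra, without an expressed probe set, are given by range. Il2, Il6 and Il7r are among those the paper names, and it names Il10r without its chain. Pathway genes are named where they pass at 12 weeks. The members, lists and rule were chosen with earlier results of these data known. Alternatives were other summaries of probe sets, single probe sets, quantile normalization, array weights, a trend and robust prior, a prior share of 0.05, expressed genes only, the 2 ages alone, a covariate of array upper quartiles, the replicate number as a block, and leaving out arrays. Leaving out or averaging mice 3 and 4 at 16 weeks was chosen after seeing the data.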

Additional observations from a re-analysis of the deposited data

Results flagged for a closer look

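In each age of 5 mice, the gap of the highest or lowest mouse to the nearest other, divided by the range of the age, was compared with Dixon's critical value of 0.71 for the 24 expressed members, Il6 and Il10ra. Of 130 such groups 26 had a mouse beyond it, where chance gives about 1 in 20. Most fell on a few arrays, 9 on mouse 3 at 20 weeks, 5 on mouse 4 at 4 weeks and 3 each on mouse 4 at 8 weeks and mouse 2 at 16 weeks.

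The array of mouse 3 at 20 weeks, which correlated least with its age, was low in Il15 (4.91, others 6.96 to 7.63) and Il1rl2 (2.98, others 4.46 to 4.73). It was high in Il1b (4.44, others 3.75 to 3.88), Il1r2 (5.27, others 3.81 to 3.93), Il2 (4.16, others 3.00 to 3.28), Il20 (5.87, others 4.67 to 4.73), Il6ra (3.79, others 3.40 to 3.41), Il7 (4.53, others 3.29 to 3.63) and Il7r (3.59, others 3.13 to 3.24). Mouse 4 at 4 weeks was high in Il1r1 (6.55, others 6.12 to 6.24), Il20 (6.11, others 4.68 to 4.70), Il6ra (4.78, others 3.41 to 3.48) and Il7r (3.39, others 3.16 to 3.19) and low in Il10rb (6.16, others 6.55 to 6.68). Mouse 4 at 8 weeks was high in Il17re (7.48, others 6.81 to 6.95), Il18 (4.68, others 4.17 to 4.30) and Il18bp (5.84, others 5.48 to 5.54). Mouse 2 at 16 weeks was high in Il2 (4.25, others 3.25 to 3.28), Il6ra (3.46, others 3.38 to 3.41) and Il10ra (3.41, others 2.59 to 2.73).

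The remaining values lay on separate arrays. Mouse 2 at 12 weeks was low in Il2 (2.96, others 3.24 to 3.29) and Il20 (4.64, others 4.66 to 4.67), and mouse 4 of that age was low in Il6ra (2.94, others 3.32 to 3.41). Mouse 1 at 16 weeks was high in Il17b (6.01, others 4.48 to 4.88), mouse 1 at 4 weeks in Il15ra (5.05, others 4.55 to 4.68) and mouse 4 at 20 weeks in Il18bp (5.72, others 5.48 to 5.50).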

How the results depend on the processing

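The count of 0 members in each comparison held with an expressed-only test, the replicate block, the trend and robust prior, a prior share of 0.05 and without mice 3 and 4 at 16 weeks, and moved elsewhere; why was not tested. With array weights 9 members passed the F-test and 2, 35, 5 and 18 passed at 8, 12, 16 and 20 weeks (37.7% of all genes in the F-test and 12.9%, 54.9%, 19.9% and 35.9% at these ages), with 1 between neighbouring ages (Il17re). Without the 3 arrays of lowest correlation 10 passed the F-test and 8, 31, 17 and 16 the 4 ages (25.7% of all genes, and 16.6%, 43.3%, 33.3% and 32.1%). At 12 weeks 34 of the 35 were lower, 30 of them without an expressed probe set (61.2% of such members, where 65.2% of all such genes were called lower), with a median log2 fold change of -0.047. With the upper quartile as a covariate 1 member passed the F-test and had a B-statistic above 1.5 (Il13ra1), and 1, 3 and 2 passed at 12, 16 and 20 weeks. At 16 weeks 1 passed with all probe sets averaged (Il1rap), 1 with the brightest probe set and 1 after quantile normalization (both Il17rc), at 20 weeks 1 after quantile normalization (Il20rb), and at 12 weeks 1 with the 2 ages alone (Il15). Leaving out each array in turn gave 0 to 1 members at 8, 12 and 16 weeks and 0 in the other comparisons; the 1 was Il17rc, without mouse 1 at 4 weeks or mouse 3 at 20 weeks.

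Each named gene was followed at 1 age, that of its smallest p (Crlf2 at 2), and there the log2 fold change changed sign for Il17ra at 20 weeks (0.0255 on probe set 1420904_at), Il10rb at 8 weeks (-0.12 after quantile normalization, -0.0805 on 1429959_at), Il6st at 8 weeks (-0.0277 after quantile normalization, -0.16 with the covariate, -0.11 on 1421239_at and -0.26 on 1437303_at), Il2 at 12 weeks (0.10 with the covariate), Il6 at 8 weeks (6e-04 after quantile normalization, 0.0075 with the covariate), Il7r at 16 weeks (-0.0486 without mice 3 and 4), Il10ra at 16 weeks (-0.0023 on 1448731_at) and Pias1 at 12 weeks (-0.0448 on 1446448_at). Of the other values at these ages 521 kept direction and side of the threshold, 47 lost a call and 3 gained one. For the 10 named members at all 4 ages, 80 of 1472 gene values under alternatives changed sign, among them Il15 at 16 weeks (0.0457 without mouse 2), and 12 gained a call (Il15, Il17re, Il2, Il6 and Il10ra).

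The replicate numbers do not pair the mice: arrays of the same number had a median correlation of their deviations of -0.0429 (15 of 50 pairs over 0.1), and those of different numbers 0.0073 (69 of 200). With the replicate block 0 members passed in each comparison. Limits are the background of the array, at which 49 members lie, mouse 3 at 20 weeks, and 5 mice per age, with nothing to tell whether mice of 1 age shared a litter.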
